A study of Mus musculus with 8 samples.

Results

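The islands described here lie on mouse chromosome 8 (mm9) in the 5.5 Mb that begin at 18 Mb, an interval chosen for its defensin gene clusters and its multicopy sequence. An island is a stretch in which reads of an anti-Brdt ChIP library clustered above a control library, and every island whose start lay in the interval was taken. That gave 475 islands of 426082 in 4 deposited lists, with 220 of 201828 in BD1del round spermatids, 136 of 112671 in BD1del spermatocytes, 86 of 74968 in WT round spermatids and 33 of 36615 in WT spermatocytes. The 11.5 Mb that follow it, up to 35 Mb, are called the flank, which served for comparison and held 1621 islands. Members were chosen by their deposited start positions, and an island's presence in a list rested on the FDR the authors had set.

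Germ cells came from adult mice whose Brdt lacked its first bromodomain (BD1del) and from adult wild-type (WT) mice, at a post-meiotic stage (round spermatids) and a meiotic stage (spermatocytes). Each of the 4 combinations had 1 anti-Brdt ChIP library and 1 input library, so no comparison below has a replicate error or a test between groups. Per the labels' protocols, cells of each stage were fractions of a BSA gradient. The WT mice were C57BL/6, pooled from 10 animals per fractionation, with chromatin cut by MNase to fragments near 200 bp. For BD1del, the strain, zygosity, pool size and chromatin preparation are not given in the sources used here. The lists' labels name paired F3 and F5 tags for BD1del and F3 tags of pairs for WT, so genotype and read set cannot be told apart. The control library held 5.45 reads for each ChIP read in BD1del round spermatids, 5.64 in BD1del spermatocytes, 3.79 in WT round spermatids and 1.79 in WT spermatocytes. Purity of the fractions could not be checked, since the lists hold no expression values.

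Brdt is a testis-specific protein of the BET family. Its bromodomains bind acetylated histones, and the first of them recognises the acetylated tail of histone H4. Defensins are small cationic antimicrobial peptides of the innate immune system. Alpha-defensins of the mouse are made mainly by Paneth cells of the small intestine and are called cryptdins there, whereas beta-defensins are made by epithelia, including that of the epididymis. The clusters grew by repeated duplication, so near-identical gene copies, pseudogenes and copy number differences are common in them.

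No mm9 annotation was used here, so no island could be assigned to a gene, an exon, an intron or a UTR, and the name of the interval was not checked against one. Gene order alone was read from RefSeq for a later build, GRCm38.p6. On chromosome 8 of that build RefSeq lists 40 Defa genes (alpha-defensins), of which 29 are protein-coding and 11 are not, and 24 Defb genes (beta-defensins), all protein-coding. It also lists Spag11a and Spag11b, beta-defensin-like genes of the epididymis. A run of 6 Defb genes from Defb40 to Defb34 is followed by Spag11b and Spag11a, then by 9 Defb genes from Defb14 to Defb33. A run of 29 Defa genes from Defa21 to Defa24 comes next, and the cluster closes with 9 Defb genes from Defb1 to Defb13. The order counts 29 of the 40 Defa genes, as many as are protein-coding, and passes over genes of other families. Between Defb7 and Defb33, inside the second Defb run, RefSeq lists 32 other genes, of which 22 are pseudogenes and 5 are protein-coding.

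The promoters of some of the genes were compared, taken as the 250 bases before the gene start in RefSeq GRCm38.p6. Promoters of the other Defa and Defb genes were not compared. Among the 16 Defa promoters in the table, compared position by position without gaps in 120 pairs, 5 pairs were identical, 13 pairs were at least 90% identical, and 30 pairs shared an identical run of 50 bases. Among 14 Defb promoters, 0 of 91 pairs were at least 90% identical and 4 pairs shared a run of 50 bases, and the most alike pair matched at 42.0% of positions. The promoter of Defa2 is identical to that of Defa20, and the promoter of Defa21 to that of Defa22. A representative of each pair is printed 5′ to 3′ to show how little sequence separates the promoters of these most alike copies. The capitals mark the 5 positions of 250 at which the printed pair differs.
Defa20: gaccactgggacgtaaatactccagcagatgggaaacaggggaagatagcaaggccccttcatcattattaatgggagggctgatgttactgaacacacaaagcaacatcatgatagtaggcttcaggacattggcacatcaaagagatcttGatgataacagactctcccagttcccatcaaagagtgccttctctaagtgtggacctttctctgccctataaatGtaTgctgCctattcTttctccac
Defa22: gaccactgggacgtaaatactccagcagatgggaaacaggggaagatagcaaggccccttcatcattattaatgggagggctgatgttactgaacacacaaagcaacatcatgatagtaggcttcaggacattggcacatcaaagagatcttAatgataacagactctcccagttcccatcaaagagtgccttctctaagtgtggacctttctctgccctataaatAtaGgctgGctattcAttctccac
The longest run without a difference is 152 bases. How the deposited counts treated reads that match several places is not given in the sources used here.

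Islands covered 5.52% of the interval in BD1del round spermatids, 6.83% in BD1del spermatocytes, 3.06% in WT round spermatids and 1.80% in WT spermatocytes. In the flank the shares were 4.24%, 5.003%, 3.08% and 1.69% in the same order of lists. Set against its own flank, the interval was covered 1.30 times as densely in BD1del round spermatids, 1.37 times in BD1del spermatocytes, 0.995 times in WT round spermatids and 1.06 times in WT spermatocytes. With all deposited islands and the whole interval counted, the BD1del lists thus stood above their flank and the WT lists close to theirs. Without the 19 bins that held no island in any list the ratios were 1.99, 2.09, 1.52 and 1.63, above 1 in every list, and at an FDR of at most 1e-10 the WT ratios were 0.332 and 0.216.

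Coverage was not spread evenly over the interval. By 100-kb bin it fell into a proximal stretch from 18 to 19.6 Mb, a dense stretch from 19.6 to 20.1 Mb, a stretch from 20.1 to 22 Mb with no island in the lists used here, and a distal stretch from 22 Mb to the end. These limits were set after the bins had been seen. The dense stretch took up 0.5 of 5.5 Mb and held 61.7% of the interval's covered bases in BD1del round spermatids, 53.2% in BD1del spermatocytes, 21.1% in WT round spermatids and none in WT spermatocytes. Without it, the ratio of the interval to the flank was 0.549 in BD1del round spermatids, 0.704 in BD1del spermatocytes, 0.863 in WT round spermatids and 1.17 in WT spermatocytes. Without both the dense stretch and the stretch that had no island, the ratios were 0.885, 1.135, 1.39 and 1.89, so BD1del spermatocytes then stood above their flank. Under either choice WT stood above BD1del at both stages. The dense stretch was picked where BD1del coverage was highest, so its removal lowers the BD1del ratios by construction. The order of the genotypes after the removal is therefore no separate result.

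**Figure D1:**
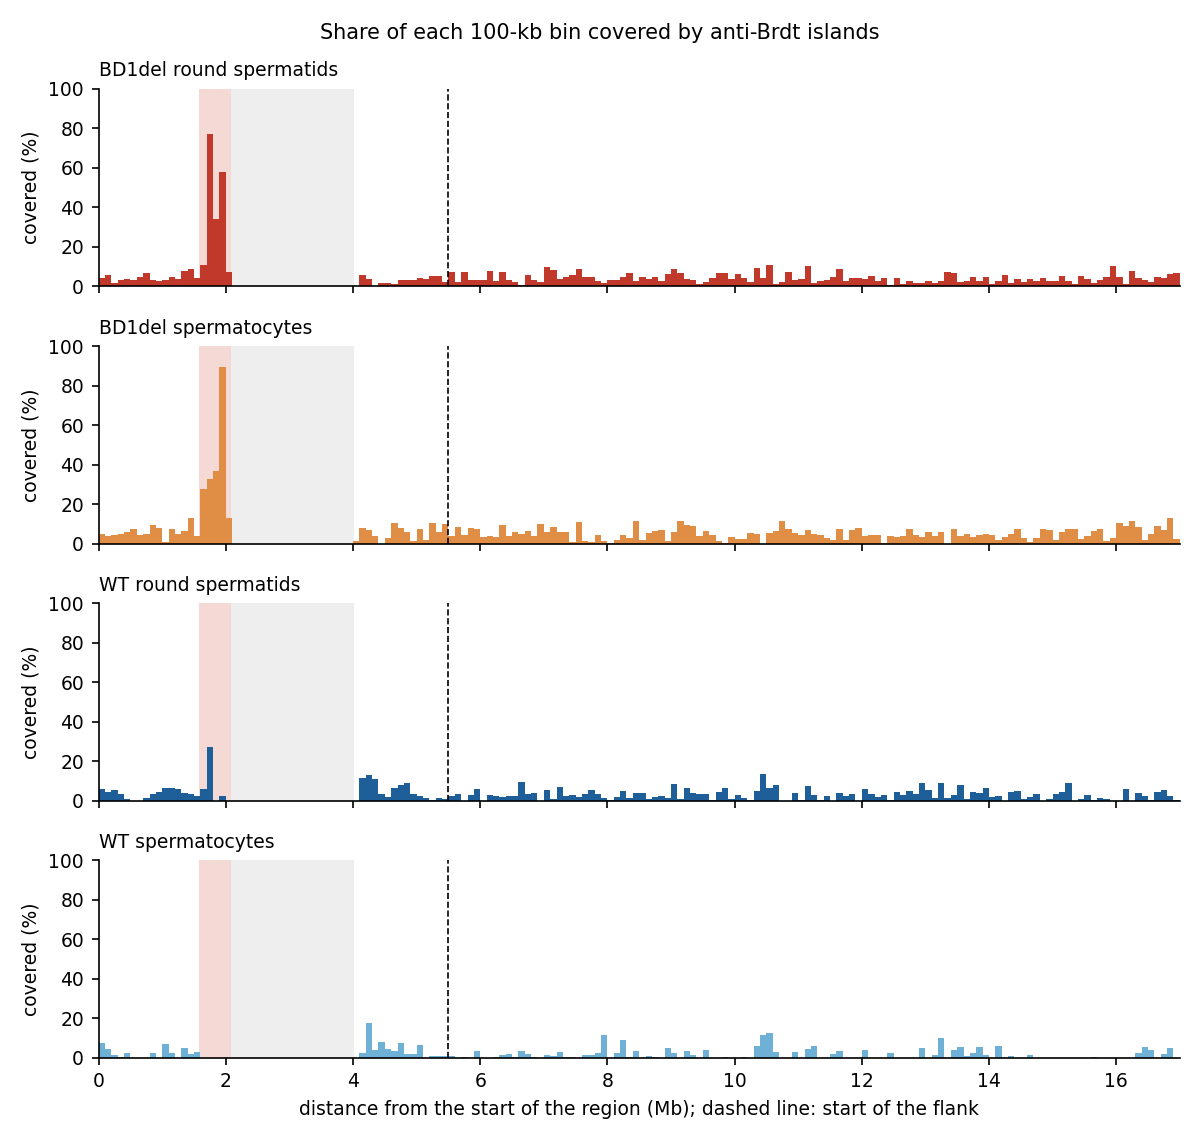
Share of each 100-kb bin covered by islands (y axis, percent) against the distance from the start of the interval (x axis, Mb) in the 4 lists, with the dense stretch shaded red, the stretch with no island in the lists used here shaded grey, and the flank right of the dashed line. Bins reached 77.4% in BD1del round spermatids, 89.6% in BD1del spermatocytes and 27.2% in WT round spermatids inside the dense stretch, and 17.4% in WT spermatocytes in the distal stretch.

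The islands of the interval differed in form as well as in number. The median island was 400 bases long in BD1del round spermatids, 1600 bases in BD1del spermatocytes, 1400 bases in WT round spermatids and 2800 bases in WT spermatocytes. Flank islands had median lengths of 400, 1000, 1400 and 1600 bases in the same order. In BD1del round spermatids 87 of 220 islands (39.55%) were a single window of 200 bases, against 6 of 136 (4.41%) in BD1del spermatocytes. The flank shares of these lists were 44.8% and 10.6%, so this contrast was not particular to the interval. The median deposited fold, the authors' ChIP reads over scaled control reads, was 6.76 in BD1del round spermatids, 3.25 in BD1del spermatocytes, 2.33 in WT round spermatids and 1.58 in WT spermatocytes. In the flank it was 7.58, 4.17, 3.42 and 2.02 in the same order, so the median fold was lower in the interval in every list. Folds of different lists are not directly comparable, since depth differed and sets which folds can be called.

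A fold of at least 2 was reached by 205 of 220 islands in BD1del round spermatids (98.3% over all chromosomes), by 109 of 136 in BD1del spermatocytes (93.5% over all chromosomes), by 55 of 86 in WT round spermatids (75.3%) and by 7 of 33 in WT spermatocytes (29.2%). The shares within the interval were 93.2%, 80.2%, 64.0% and 21.2%, each below the background of its list. Summed over all islands of the interval, ChIP reads over scaled control reads came to 1.78 in BD1del round spermatids (95% interval 1.75 to 1.82), 1.49 in BD1del spermatocytes (1.47 to 1.52), 1.67 in WT round spermatids (1.62 to 1.72) and 1.56 in WT spermatocytes (1.49 to 1.63). In the flank the summed fold was 5.86, 3.81, 2.88 and 2.01 in the same order. These exact binomial intervals cover counting error only.

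Control density also differed between the interval and the flank. Islands of the interval held 169.9 control reads per kb in BD1del round spermatids, 170.9 in BD1del spermatocytes, 81.1 in WT round spermatids and 40.2 in WT spermatocytes. Flank islands held 45.8, 51.0, 41.0 and 44.7 control reads per kb in the same order. Control density in WT spermatocyte islands was thus near that of the flank, and the other lists stood above it.

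**Figure D2:**
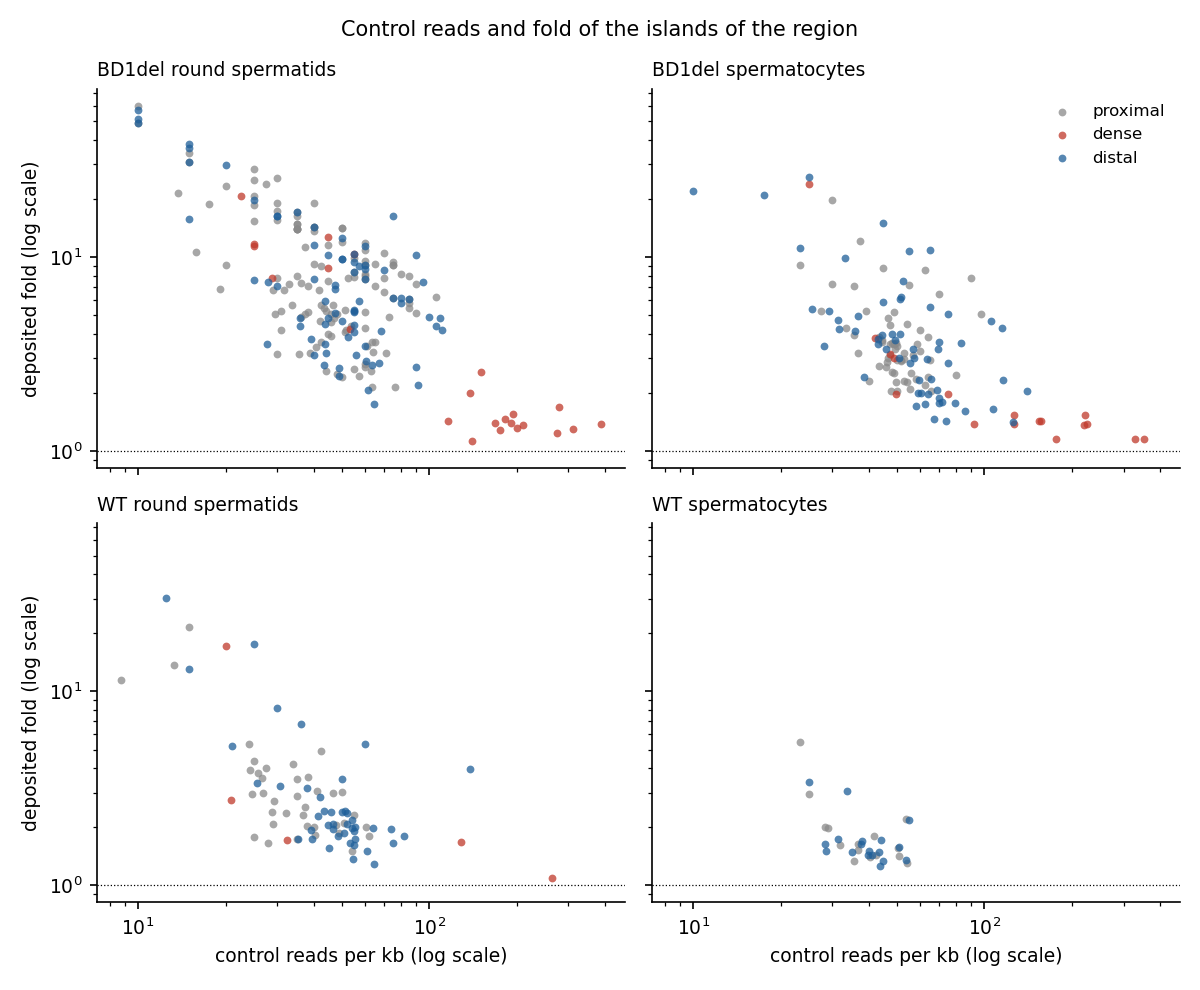
Deposited fold (y axis, log scale) against control reads per kb (x axis, log scale) for each island of the interval in each list, with the stretch in colour; the dotted line marks a fold of 1. The fold has control reads in its denominator, so a fall from left to right is built in; islands of the dense stretch reach 387 control reads per kb in BD1del round spermatids and 353 in BD1del spermatocytes, with folds near 1.

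The dense stretch held 23 islands in BD1del round spermatids, 17 in BD1del spermatocytes, 5 in WT round spermatids and none in WT spermatocytes. They covered 37.4%, 39.96% and 7.12% of it in the lists that had any. Its control density was 246 reads per kb of island in BD1del round spermatids, 273 in BD1del spermatocytes and 216 in WT round spermatids. Relative to the flank of the same list that was 5.38, 5.37 and 5.26 times as dense. The WT value rested on 1 island with 7182 of 7671 control reads. The median per island was 150.8 control reads per kb in BD1del round spermatids, 126.2 in BD1del spermatocytes and 32.3 in WT round spermatids, against flank medians of 44.0, 48.5 and 28.3. The summed fold there was 1.34 (1.32 to 1.37) in BD1del round spermatids, 1.21 (1.19 to 1.24) in BD1del spermatocytes and 1.14 (1.09 to 1.20) in WT round spermatids. Of all control reads in islands of the interval, 89.4%, 85.1% and 56.2% lay in the dense stretch, in the same order. Control reads are listed only for islands, so the control density of WT spermatocytes there is unknown.

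High control density moved with the excess coverage in the BD1del lists, and its part in the coverage was not tested. With the 1% of islands of most control reads per kb left out of each list, the ratio of the interval to the flank was 0.658 in BD1del round spermatids and 0.838 in BD1del spermatocytes, against 1.005 in WT round spermatids and 1.07 in WT spermatocytes. Of the islands of at least 1 kb, 10 of 69 in BD1del round spermatids exceeded the 99th percentile of control density of their list, as did 5 of 105 in BD1del spermatocytes, 1 of 70 in WT round spermatids and 0 of 29 in WT spermatocytes. All of them lay in the dense stretch. With islands of a fold of at least 2 alone, the ratio to the flank was 0.525 in BD1del round spermatids, 0.611 in BD1del spermatocytes, 0.525 in WT round spermatids and 0.230 in WT spermatocytes, below 1 in every list.

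At least 20% of a 100-kb bin was covered in 3 bins of the interval in BD1del round spermatids (1.67% of 25809 bins over all chromosomes), in 4 in BD1del spermatocytes (2.27%), in 1 in WT round spermatids (2.32%) and in 0 in WT spermatocytes (3.36%). All of these bins lay in the dense stretch, and no bin of the flank reached that share in any list. The bin from 19.7 Mb was covered to 77.4% in BD1del round spermatids, 32.8% in BD1del spermatocytes, 27.2% in WT round spermatids and 0.0% in WT spermatocytes. The bin from 19.9 Mb was covered to 57.8%, 89.6%, 2.6% and 0.0%, and the bin from 19.8 Mb to 34.2%, 36.8%, 0.0% and 0.0%, in the same order. Each BD1del list thus exceeded the WT list of its stage in every bin of the dense stretch. The stretch was picked where BD1del coverage was highest, so neither this nor the place of the most covered bins is a separate result. The BD1del lists differed in which bin they covered most.

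The longest island in BD1del round spermatids was chr8:19714401-19771000, of 56.6 kb, with 3497 ChIP and 15475 control reads and a fold of 1.23 (1.19 to 1.28). In BD1del spermatocytes it was chr8:19917201-20006200, of 89.0 kb, with 6448 ChIP and 31455 control reads and a fold of 1.16 (1.13 to 1.19). WT round spermatids had chr8:19712201-19739400, of 27.2 kb, with 2064 ChIP and 7182 control reads and a fold of 1.09 (1.04 to 1.14). All 3 were long islands of low fold. The other islands over 10 kb in the dense stretch had folds of at most 1.38. No list had an island of 10 kb or more in the flank. Over all of chromosome 8 outside the interval, the longest islands had 14400 bases in BD1del round spermatids and 11600 in BD1del spermatocytes. They had 46800 bases in WT round spermatids and 87800 in WT spermatocytes, so islands over 10 kb were not particular to the interval.

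These long islands met each other in parts. The WT round spermatid island was covered to 96.3% by islands of BD1del round spermatids and shared no base with BD1del spermatocytes. The 56.6 kb island of BD1del round spermatids was covered to 44.2% by WT round spermatids at its proximal end and to 52.7% by BD1del spermatocytes at its distal end. The 89.0 kb island of BD1del spermatocytes was covered to 56.4% by BD1del round spermatids. Of the 274.4 kb of the dense stretch under an island of any list, 148.2 kb (54.0%) lay under islands of 2 lists and none under 3. In the flank 8.88% of such bases lay under 2 lists.

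**Figure D3:**
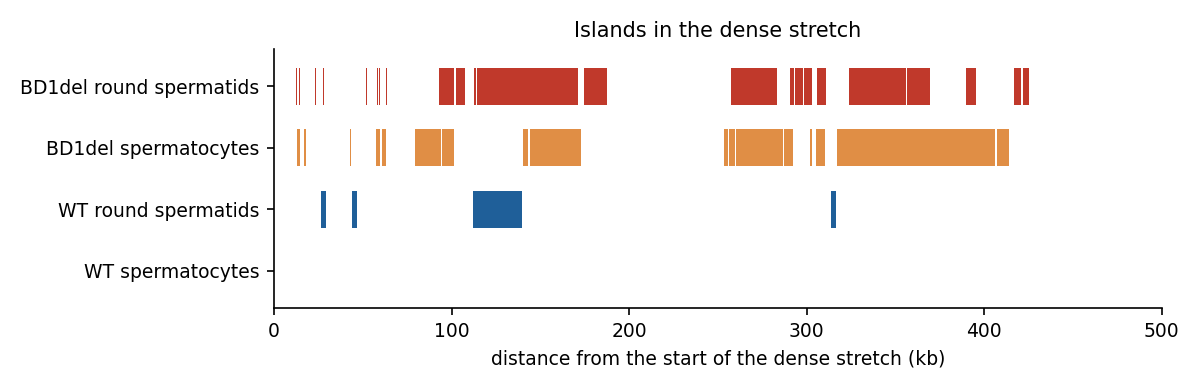
Islands of the dense stretch as bars along the distance from its start (x axis, kb), 1 row per list. Islands of BD1del round spermatids and BD1del spermatocytes fall largely in the same places, the 27.2 kb island of WT round spermatids ends just before an island of BD1del spermatocytes begins, and WT spermatocytes have no island there.

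Short islands of high fold also occurred in the dense stretch. In BD1del round spermatids 8 of its 23 islands had under 100 control reads per kb, with folds of 4.26 to 20.6, and together they spanned 3.6 kb. The island of highest fold among those with at least 10 control reads in BD1del spermatocytes, chr8:19642801-19643200, lay here, with 42 ChIP and 10 control reads and a fold of 23.7 (11.7 to 52.9). No island of another list met it. The stretch thus held islands of both kinds, the long ones making up nearly all of the covered length.

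From 20.1 to 22 Mb none of the 19 bins held an island in any of the 4 lists. Counted to the nearest islands, the stretch without an island in the lists used here ran over chr8:20025001-22056000, or 2.03 Mb. Only 1 stretch was longer over all chromosomes, one of 7.01 Mb on chromosome 7. In the single lists it was 2.05 Mb long in BD1del round spermatids, 2.04 Mb in BD1del spermatocytes, 2.19 Mb in WT round spermatids and 2.59 Mb in WT spermatocytes. The BD1del round spermatid island that ends at its proximal edge, chr8:20021801-20025000, had 278 control reads per kb, so a change from high control density to no island took place within 1 bin. Whether reads could be placed in this stretch was not tested.

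Summed over islands, the proximal stretch was near the flank in control density. It held 45.3 control reads per kb of island in BD1del round spermatids, 49.4 in BD1del spermatocytes, 36.6 in WT round spermatids and 38.4 in WT spermatocytes. It was covered to 4.46% in BD1del round spermatids, 5.81% in BD1del spermatocytes, 3.63% in WT round spermatids and 2.39% in WT spermatocytes, which was 1.05, 1.16, 1.18 and 1.41 times the flank. The summed fold was 5.76 (5.49 to 6.05) in BD1del round spermatids, 3.32 (3.16 to 3.48) in BD1del spermatocytes, 2.50 (2.33 to 2.67) in WT round spermatids and 1.63 (1.52 to 1.76) in WT spermatocytes. A fold of at least 2 was reached there by 121 of 121 islands of BD1del round spermatids (background 98.3%), 60 of 60 of BD1del spermatocytes (93.5%), 30 of 38 of WT round spermatids (75.3%) and 4 of 15 of WT spermatocytes (29.2%). These shares were near those of the whole lists.

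In the distal stretch both WT lists stood above their flank, and by more than in the proximal stretch. Islands covered 3.0% of it in BD1del round spermatids, 5.53% in BD1del spermatocytes, 4.99% in WT round spermatids and 4.04% in WT spermatocytes. Against the flank of the same list that was 0.707, 1.11, 1.62 and 2.39 times as dense. Control density was 49.9 reads per kb in BD1del round spermatids, 60.2 in BD1del spermatocytes, 51.7 in WT round spermatids and 41.4 in WT spermatocytes, which was 1.09, 1.18, 1.26 and 0.926 times that of the flank. The summed fold was 5.12 (4.83 to 5.44) in BD1del round spermatids, 2.84 (2.71 to 2.98) in BD1del spermatocytes, 2.27 (2.16 to 2.40) in WT round spermatids and 1.51 (1.43 to 1.61) in WT spermatocytes. A fold of at least 2 was reached there by 75 of 76 islands of BD1del round spermatids (98.7%, background 98.3%) and 45 of 59 of BD1del spermatocytes (76.3%, 93.5%). In WT 23 of 43 round spermatid islands (53.5%, background 75.3%) and 3 of 18 spermatocyte islands (16.7%, 29.2%) reached it. Both WT shares were thus below their backgrounds. The median per island in WT round spermatids was 50 control reads per kb, against 28.3 in the flank, and the part of control density in the WT coverage was not tested.

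In each WT list the most covered bin of the distal stretch was the one from 22.2 Mb. The bin from 22.2 Mb was covered to 3.8% in BD1del round spermatids, 6.8% in BD1del spermatocytes, 13.0% in WT round spermatids and 17.4% in WT spermatocytes. The bin from 22.3 Mb was covered to 0.0%, 3.6%, 11.0% and 4.2%, and the bin from 22.1 Mb to 5.6%, 8.0%, 11.6% and 2.4%, in the same order. Both WT lists thus exceeded both BD1del lists in the first of these bins, and in the bin from 22.3 Mb as well. In that first bin the summed fold was 4.01 in BD1del round spermatids, 1.98 in BD1del spermatocytes, 1.83 in WT round spermatids and 1.36 in WT spermatocytes. It contained the longest WT spermatocyte island of the interval, chr8:22277001-22287000, of 10.0 kb, with 403 ChIP and 537 control reads and a fold of 1.34 (1.18 to 1.53). A WT round spermatid island, chr8:22277201-22280800, lay wholly inside it with a fold of 1.96 (1.53 to 2.51), and no BD1del island met either.

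**Figure D4:**
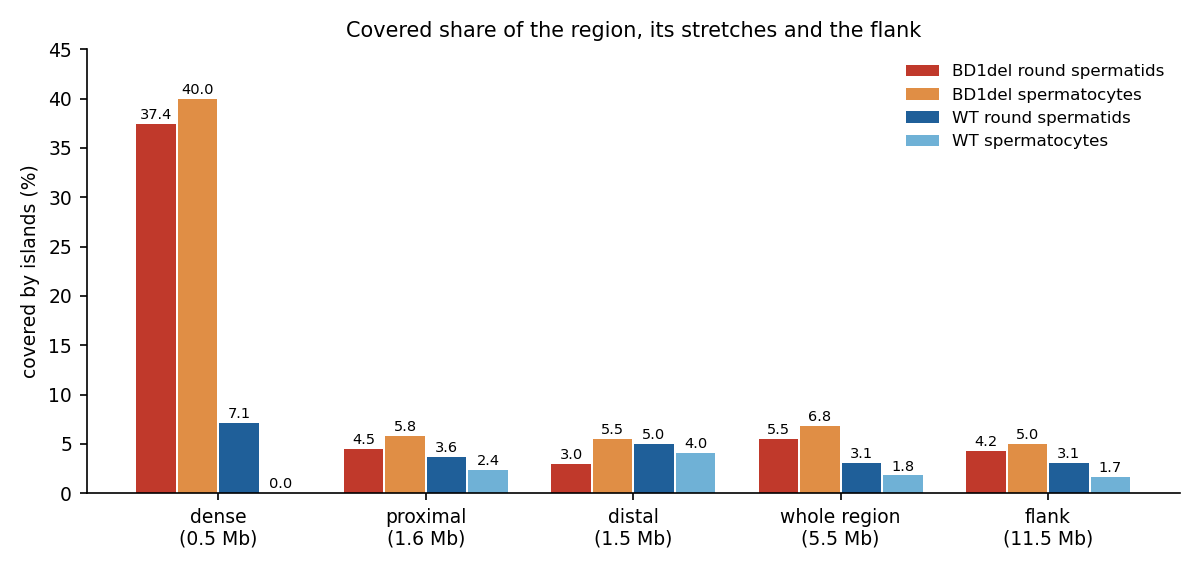
Share covered by islands (y axis, percent) in the dense, proximal and distal stretches, the whole interval and the flank, 1 bar per list and 1 library per list. The BD1del bars of the dense stretch, at 37.4 and 39.96%, stand far above every other bar, and in the distal stretch WT round spermatids, at 4.99%, exceed BD1del round spermatids, at 3.0%.

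Between the stages in BD1del, 33 of 220 round spermatid islands (15%, interval 10.6 to 20.4%) shared at least 1 base with a spermatocyte island, against 13.9% over all chromosomes. In the other direction 33 of 136 spermatocyte islands (24.3%, 17.3 to 32.4%) shared bases with one of round spermatids, against 24.2%. Both shares were near their backgrounds and above the flank's 7.45% and 12.5%. In the dense stretch 12 of 23 round spermatid islands (52.2%, 30.6 to 73.2%) and 12 of 17 spermatocyte islands (70.6%, 44.0 to 89.7%) were met. Median island length there was 4000 bases in round spermatids and 3200 bases in spermatocytes, against 400 and 1600 bases in the whole interval, and the comparison was not adjusted for length. By bin, round spermatids were more covered in 10 and less covered in 26 of 55 bins, with the largest excess of 44.6 percentage points in the bin from 19.7 Mb and the largest deficit, -31.8 points, in the bin from 19.9 Mb.

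Between the stages in WT, 11 of 86 round spermatid islands (12.8%, 6.56 to 21.7%) met a spermatocyte island, against 30.3% over all chromosomes and 21.5% in the flank. In the other direction 11 of 33 spermatocyte islands (33.3%, 17.96 to 51.8%) shared bases with one of round spermatids, against 58.9% over all chromosomes and 59.1% in the flank. Both shares were below those over all chromosomes and below those of the flank. Islands of 1 library are not independent, so the intervals give no test of this. In the proximal stretch 8 of 15 spermatocyte islands were met, and in the distal stretch 3 of 18. By bin, round spermatids were more covered in 20 and less covered in 11 of 55 bins, against 81 and 19 of 115 in the flank. The bin from 19.7 Mb had the largest excess, 27.2 points.

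Between the genotypes in round spermatids, 13 of 220 BD1del islands (5.91%, 3.18 to 9.89%) met a WT island, against 11.2% over all chromosomes and 5.59% in the flank. In the other direction 11 of 86 WT islands (12.8%, 6.56 to 21.7%) met a BD1del island, against 29.1% over all chromosomes and 17.5% in the flank. These shares were thus low against the whole genome and near those of the flank. By bin BD1del was more covered in 19 and less covered in 17 of 55 bins, against 76 and 37 of 115 in the flank. The excess was largest in the bins from 19.9, 19.7 and 19.8 Mb, with 55.2, 50.2 and 34.2 points, and the deficit was largest in the bins from 22.3, 22.2 and 22.1 Mb, with -11.0, -9.2 and -6.0 points.

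Between the genotypes in spermatocytes, 4 of 136 BD1del islands (2.94%, 0.807 to 7.36%) met a WT island, against 11.9% over all chromosomes and 3.39% in the flank. In the other direction 4 of 33 WT islands (12.1%, 3.40 to 28.2%) met a BD1del island, against 35% over all chromosomes and 17.2% in the flank. By bin BD1del was more covered in 28 and less covered in 8 of 55 bins, against 94 and 19 of 115 in the flank. The excess was largest in the bins from 19.9, 19.8 and 19.7 Mb, with 89.6, 36.8 and 32.8 points, where WT spermatocytes had no island. The deficit was largest in the bins from 22.2, 22.4 and 19 Mb, with -10.6, -8.0 and -6.4 points. At both stages the bins of largest BD1del excess lay in the dense stretch. That stretch was picked where BD1del coverage was highest, so this is no separate result. The bin from 22.2 Mb was among those of largest deficit at both stages.

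**Figure D5:**
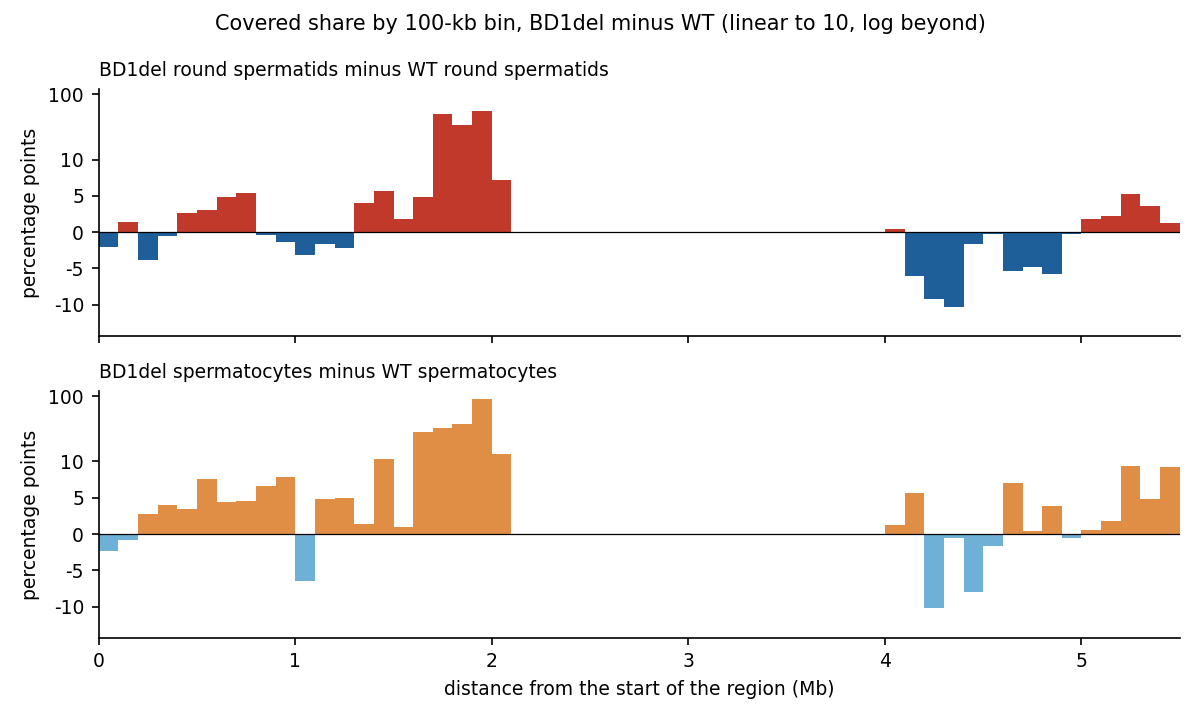
Covered share in BD1del minus that in WT (y axis, percentage points, linear to 10 and logarithmic beyond) by 100-kb bin along the interval (x axis, Mb from its start), for round spermatids above and spermatocytes below. Bars of the dense stretch reach 55.2 points in round spermatids and 89.6 points in spermatocytes, and bars near 4.2 Mb run below 0 at both stages.

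Across the 36 bins with an island in any list, Spearman's rho of the covered share was 0.515 between BD1del round spermatids and BD1del spermatocytes and 0.446 between WT round spermatids and WT spermatocytes. It was -0.0724 between BD1del and WT round spermatids and -0.307 between BD1del and WT spermatocytes. Over the 31 bins of the proximal and distal stretches rho was 0.246 between the BD1del stages, 0.514 between the WT stages, -0.0658 between the genotypes in round spermatids and -0.0573 in spermatocytes. In the 115 bins of the flank rho between the stages was -0.0322 in BD1del and 0.410 in WT. Neighbouring bins share the local sequence and can share an island, and lists of 1 genotype share a read set, so these values are descriptions. Within the interval the values between stages were positive, that of BD1del being lower without the dense stretch, and the values between genotypes were close to 0 outside it.

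Only 1 place carried an island in all 4 lists, near chr8:19085001-19086200 in the proximal stretch. BD1del round spermatids had 29 ChIP and 23 control reads there with a fold of 6.87 (3.84 to 12.4), and BD1del spermatocytes 28 and 18 reads over chr8:19085801-19086200 with a fold of 8.77 (4.68 to 16.8). WT round spermatids had 45 ChIP and 85 control reads with a fold of 2.01 (1.37 to 2.91), and WT spermatocytes 109 and 99 reads over chr8:19085201-19088600 with a fold of 1.97 (1.49 to 2.61). It was 1 of 220, 1 of 136, 1 of 86 and 1 of 33 islands, against backgrounds of 3.52%, 6.26%, 9.65% and 19.9% over all chromosomes. Islands met by no other list numbered 174 of 220 in BD1del round spermatids (background 77.7%), 91 of 136 in BD1del spermatocytes (67.4%), 58 of 86 in WT round spermatids (48.9%) and 18 of 33 in WT spermatocytes (24.2%). The shares within the interval, 79.1%, 66.9%, 67.4% and 54.5%, were near the background for BD1del and above it for WT. Flank shares were 87.6%, 81.4%, 60.6% and 32.3% in the same order, above those of the interval in BD1del and below them in WT.

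In each list the island of highest fold under a minimum of 10 control reads was short and met no island of another list. Among islands with at least 10 control reads, BD1del round spermatids had chr8:19591401-19591800, with 48 ChIP and 11 control reads and a fold of 23.8 (12.2 to 50.8), just proximal to the dense stretch. WT round spermatids had chr8:23163001-23163800, with 80 ChIP and 10 control reads and a fold of 30.3 (15.7 to 65.6), the highest value of the interval under this rule. WT spermatocytes had chr8:18317201-18317800, with 43 ChIP and 14 control reads and a fold of 5.49 (2.95 to 10.9). None of them met an island of another list. Over all chromosomes 77.7%, 48.9% and 24.2% of the islands of these lists met none, in the same order. Lower in the WT spermatocyte ranking, chr8:23465201-23466000, with a fold of 3.05, lay wholly under a BD1del spermatocyte island of fold 4.14. A further WT round spermatid island, chr8:22921401-22923400, had the second most ChIP reads of its list in the interval, 291 against 276 control reads, with a fold of 3.99 (3.38 to 4.73) and no island of another list on it.

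The islands nearest to the limits of the interval are given as a description. At 18 Mb the first fold inside was 21.3 in BD1del round spermatids, 2.03 in BD1del spermatocytes, 1.81 in WT round spermatids and 1.79 in WT spermatocytes, and the last fold outside was 1.95, 3.73, 1.97 and 1.70 in the same order. At the distal limit the last fold inside was 2.78, 3.36, 5.23 and 3.05 and the first fold outside was 2.54, 3.42, 2.44 and 3.23, again in that order.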

How the data were processed

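Islands came from 4 deposited SICER lists on mm9, 1 per anti-Brdt ChIP library, per the submitters' processing notes; window (200 bases) and gap (600 bases) were read from the lists' labels. The SICER version, aligner, duplicate treatment and choice of control are not given in the sources used here. The authors deposited whole-number ChIP and control counts of reads per island without normalization, a p-value and an FDR, and a fold, the ratio of ChIP to control reads scaled by library size. The library ratio was recovered from counts and fold, and the scale of libraries was otherwise unknown. Reads in islands per list ranged from 4506707 to 7310429 for ChIP and from 7147741 to 10905618 for control.

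Covered bases were counted in 55 bins of 100 kb and in 115 bins of the flank with pandas 2.3.3 on Python 3.11.15. Islands met when they shared at least 1 base. Intervals are exact (Clopper-Pearson) 95% binomial intervals from scipy 1.17.1, for shares and for the fold. For covered shares the trials were windows, taken as independent, and the flank share in a ratio was taken as fixed. The counting of covered bases and of shared bases was checked on simulated island lists. Coordinates are 1-based. Named islands were, per list, the 3 longest, the 3 with most ChIP reads, the 3 of highest fold (control reads of 10 or more) and those met in all other lists; named bins were the 5 most covered per list and the 3 largest differences in each direction. The report gives the leading ones. The values were recomputed with an interval from 19 to 23 Mb, with an overlap of 50% of own bases, with islands merged within 1000 bases, and with lists limited to a fold of at least 2, to an FDR up to 1e-10, to 10 or more control reads, to the 10000 islands of lowest p, or to the 99% of islands with the lowest control density. The members and these rules were chosen with earlier results of these data known. Input libraries entered only as control counts.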

Additional observations from a re-analysis of the deposited data

Results flagged for a closer look

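In the following, an effect under 1 contrast had opposite signs in the groups compared. Each value is a difference between single libraries, and none of these differences was tested.

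The covered share of the interval in round spermatids minus that in spermatocytes was -1.31 percentage points in BD1del and 1.27 points in WT. The same held in the proximal stretch (-1.35 points in BD1del, 1.24 in WT), the dense stretch (-2.52 and 7.12), the distal stretch (-2.53 and 0.947) and the flank (-0.761 and 1.39), so this sign pattern was not particular to the interval. Relative to each list's own flank the stage difference had the same sign in both genotypes, negative in the interval, the proximal and the distal stretch and positive in the dense stretch.

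In the distal stretch the covered share in BD1del minus that in WT was -1.99 points in round spermatids and 1.49 points in spermatocytes. The summed fold of the interval in BD1del minus that in WT was 0.111 in round spermatids and -0.068 in spermatocytes. Control reads per kb of island in round spermatids minus spermatocytes were -1.0 in BD1del and 40.9 in WT for the interval, and -10.3 and 10.4 for the distal stretch. In the distal stretch the BD1del minus WT difference in control reads per kb was -1.83 in round spermatids and 18.9 in spermatocytes.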

How the results depend on the processing

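No paired analysis was possible because each group had 1 library, and no replicate was left out for the same reason. Of 76 recomputed values that answer a comparison, 37 stayed within the interval of the value reported. A further 32 moved out of it and 7 changed direction. The cause was not tested. For ratios to the flank, the intervals took each window as independent and the flank share as fixed. Windows of a long island are not independent, so these intervals are too narrow. They were 1.24 to 1.37 in BD1del round spermatids and 1.31 to 1.43 in BD1del spermatocytes. In WT they were 0.930 to 1.06 in round spermatids and 0.973 to 1.16 in spermatocytes. The counts rest on these intervals and are no test. A change of direction was counted only where the interval of the reported ratio excluded 1, which held in BD1del but not in WT. WT ratios, reported as 0.995 and 1.06, thus could count only as moved. WT spermatocytes fell to 0.230 at a fold of at least 2, and WT round spermatids rose to 1.52 without the stretch that had no islands. Lists are given as BD1del round spermatids, BD1del spermatocytes, WT round spermatids and WT spermatocytes.

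By that rule the direction changed in BD1del ratios of the interval to the flank. With a fold of at least 2 they were 0.525 and 0.611, with 0.525 and 0.230 in WT. Without the 1% of islands of highest control density they were 0.658 and 0.838. In an alternative added after seeing the data, without the dense stretch, they were 0.549 and 0.704, with 0.863 and 1.17 in WT. Without the stretch that had no islands, also added, the ratios were 1.99, 2.09, 1.52 and 1.63. Without both, also added, they were 0.885, 1.135, 1.39 and 1.89, the first below 1. With 10000 islands of lowest p they were 3.52, 5.33, 0.254 and 0.309, resting on 7, 8, 10 and 6 islands. An FDR of at most 1e-10 gave 0.332 and 0.216 in WT, at least 10 control reads gave 1.39 in BD1del round spermatids, and the interval from 19 to 23 Mb gave 1.44 in BD1del round spermatids and 1.07 in WT round spermatids.

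The share of BD1del round spermatid islands met by BD1del spermatocytes was 6.83% at the stricter FDR, 8.78% at a fold of at least 2 and 20.6% from 19 to 23 Mb. The share met by WT round spermatids was 0.621%, 2.44% and 10.3% under the same settings and 0.0% with 10000 islands. The share of WT round spermatid islands met by WT spermatocytes was 0.0% of 20 islands at the stricter FDR, 5.46% at a fold of at least 2 and 0.0% of 10 with 10000 islands. The share of BD1del spermatocyte islands met by WT spermatocytes was 0.0% of 74 at the stricter FDR and 0.0% of 8 with 10000 islands. The limits on FDR, fold and list length applied to both lists of a pair. Shares over all chromosomes and in the flank were not recomputed under these settings. These values therefore do not show whether the interval differed from the rest of the lists.

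With 1 library per group, differences between lists cannot be separated from differences between libraries, and lists differ in depth. Control reads outside islands were not listed, so places without an island say nothing on control density.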

Other observations

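Outside the dense stretch few bases were shared between lists. Of the 233.8 kb of the proximal stretch under an island of any list, 9.41% lay under 2 lists, 0.770% under 3 and 0.171% under all 4. Of 240.6 kb in the distal stretch, 9.31% lay under 2 lists, 0.0831% under 3 and none under 4.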
